A study of Mus musculus with 6 samples.

Results

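The PLAG zinc finger family comprises 3 mouse genes, *Plag1*, *Plagl1* and *Plagl2*, and each of them has 1 entry in the table of 19338 distinct gene symbols examined here. The family was selected on a measured value, because *Plag1* ranked among the strongest decreases after OHT treatment in the authors' own comparison of these libraries, and *Plagl1* and *Plagl2* were then added as its relatives. That comparison is theirs and its values are not given here. The levels below are pooled over treated and untreated cells, so that they describe how strongly each gene was represented in nuclear RNA and do not compare the groups.

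The libraries were made from RNA of isolated nuclei of a mouse embryonic stem cell line. It was *Rybp* fl/fl;*Yaf2*-/-, so that every library, untreated ones included, came from cells without a functional *Yaf2* gene, and the treated cells had in addition recombined *Rybp*. There were 3 untreated replicates (UNT) and 3 replicates kept in 4-hydroxytamoxifen (OHT), at a dose of 800 nM and over 96 hr, which activates a tamoxifen-inducible Cre recombinase. The *Yaf2*-/- line was made from *Rybp* fl/fl cells by CRISPR/Cas9 editing, and OHT-treated cells without floxed *Rybp* were not analysed here. RYBP and YAF2 are paralogous partners of RING1B in variant PRC1, the Polycomb complex that ubiquitylates histone H2A. The study asked mainly how they stimulate this activity. Its nuclear RNA-seq compared the *Yaf2*-/- cells before and after deletion of RYBP.

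PLAG proteins are transcription factors that bind GC-rich DNA through an array of C2H2 zinc fingers near the N terminus. *Plag1* was first described as a gene activated by chromosomal rearrangement in salivary gland adenomas and it drives the growth factor gene *Igf2*. *Plagl1*, also known as *Zac1*, is an imprinted gene expressed from the paternal copy, whose product restrains cell division and belongs to a network of imprinted growth genes. *Plagl2* is the closest relative of *Plag1* and acts on Wnt pathway genes in stem cells.

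The relationship within the family was visible in the coding sequences. The annotated products had 499 residues for *Plag1*, 704 for *Plagl1* and 496 for *Plagl2*. A search for the C2H2 spacing of cysteines and histidines found 7 matches in *Plag1* (residues 36 to 236), 7 in *Plagl1* (residues 6 to 207) and 6 in *Plagl2* (residues 70 to 242). A narrower spacing tried first had found 6, 6 and 5. The count thus depends on the pattern, which may miss a finger, and does not give the number of fingers. In the finger region, *Plag1* and *Plagl2* were identical at 76.9% of 173 aligned residues, against 67.7% of 201 for *Plag1* and *Plagl1* and 69.9% of 173 for *Plagl1* and *Plagl2*. Outside the matched regions the identity was 41.1%, 27.8% and 33.0% in the same order. A residue counted as in the fingers only where the matched regions of both genes covered it. Pairs with *Plagl2*, which had fewer matches, therefore counted part of the other gene's finger region as outside. The percentages of the pairs thus cover unlike regions. *Plagl1* carried the longest part after its fingers, 497 residues, where *Plag1* had 263 and *Plagl2* had 254.

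Despite this similarity, reads of 40 bases that match exactly could tell the transcripts of the family apart. The longest exact runs that the coding sequences share are printed because they are all much shorter than a read, and none contains capitals because no part of them is set apart.

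Plag1 and Plagl2: catgaccccaacaaagag

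Plag1 and Plagl1: ttctacacccggaa

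Plagl1 and Plagl2: aaggacttcctgtgtcagt

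These runs have 18, 14 and 19 bases, and each of them lies within the zinc finger region of both genes. Of the distinct 40-base stretches in the annotated transcripts, 0 of 4735 in *Plag1*, 0 of 4913 in *Plagl1* and 0 of 5446 in *Plagl2* occurred in another member of the family. In transcripts of any other gene, 0 stretches of *Plag1* and 0 of *Plagl2* were found, and 6 of *Plagl1* (0.122%). Introns were not compared, and matches with mismatches were not searched.

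*Plag1* had the highest read count of the family. Its base mean, which is the authors' mean over all libraries of the count normalized for library size, was 1117. *Plagl2* had a base mean of 586.7 in the authors' table and *Plagl1* one of 493.1, so that *Plag1* held 50.8% of the family's summed base mean, *Plagl2* 26.7% and *Plagl1* 22.4%. As a pooled mean has no spread, whether *Plagl2* and *Plagl1* differ beyond replicate error could not be tested, and neither could any other order given here. Where a gene differs between UNT and OHT cells, its pooled mean lies between the levels of the groups and equals neither.

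Over all entries, each PLAG gene was above the middle of the table, but among the entries that reached a base mean of 10 *Plagl1* fell just below it, at percentile 48.0. The base mean of *Plag1* was at percentile 74.6 of all 20633 entries (position 5241 from the highest), that of *Plagl2* at percentile 63.5 (position 7528) and that of *Plagl1* at percentile 60.6 (position 8128). The median entry had a base mean of 236.4, and the upper quartile began at 1142, just above *Plag1*. The authors' base mean of *Plag1* was 4.72 times the median, that of *Plagl2* 2.48 times and that of *Plagl1* 2.09 times.

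**Figure D1:**
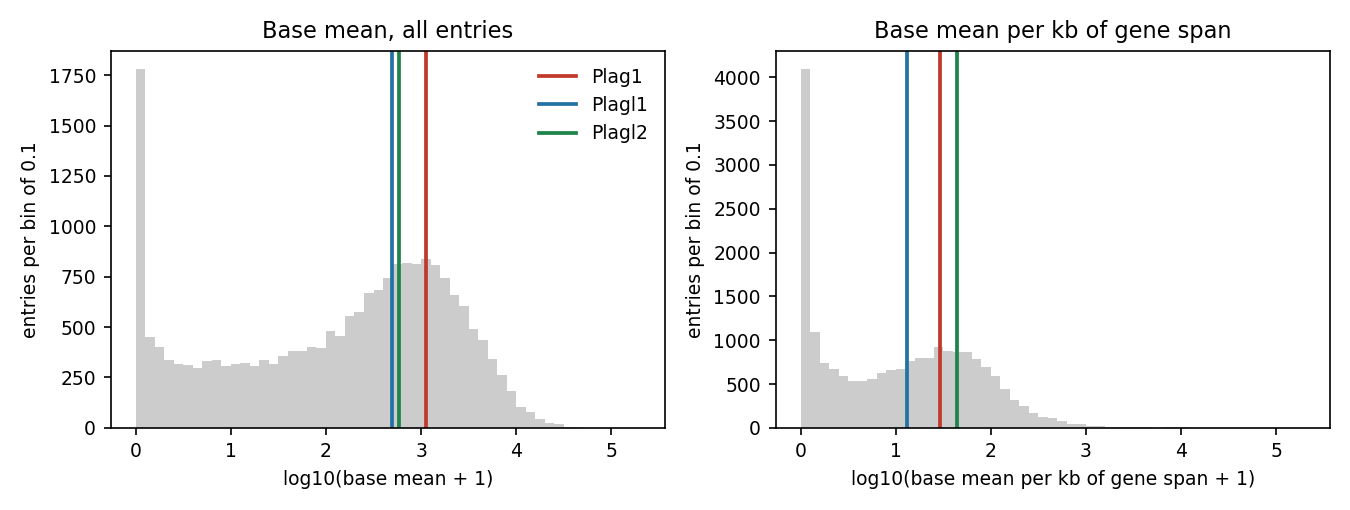
Number of table entries by base mean (left) and by base mean per kb of gene span (right), both on a log10(value + 1) axis in bins of 0.1, with coloured lines at *Plag1*, *Plagl1* and *Plagl2*. The lines lie within the broad upper mode of both distributions, and *Plag1* is rightmost on the left and *Plagl2* on the right.

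A longer gene collects more reads, and the base means and percentiles above are not corrected for that. Levels were therefore also set side by side after division by length. On mm10, *Plag1* occupies positions 3898769 to 3938430 of chromosome 4 (minus strand), *Plagl1* positions 13090832 to 13131694 of chromosome 10 (plus strand) and *Plagl2* positions 153227769 to 153241358 of chromosome 2 (minus strand). The first 2 of these genes span 39662 and 40863 bp, and *Plagl2* is compact at 13590 bp. Exons made up 12.8% of the annotated *Plag1* transcript's span and 12.9% of that of *Plagl1* (6 exons each), against 40.1% for *Plagl2* (3 exons). Nuclear RNA is rich in unspliced transcripts. The study's methods describe a second alignment meant to recover nascent reads from introns, and a gene set filtered on how well the gene body can be mapped, both of which concern the whole gene span. They do not say outright whether the counting script took reads from introns, and both lengths were therefore used, with the span as the main one.

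The order of the family turned on that choice. Per kb of gene span, introns included, the level of *Plagl2* was the highest at 43.2 normalized counts per kb (percentile 75.0), followed by *Plag1* at 28.2 (percentile 67.2) and *Plagl1* at 12.1 (percentile 53.3). Per kb of exon, *Plag1* came first at 233.9 (percentile 64.6), ahead of *Plagl2* at 107.0 (percentile 51.9) and *Plagl1* at 93.8 (percentile 50.1). The level of *Plagl2* was thus 1.53 times that of *Plag1* per kb of span and 0.457 times per kb of exon. *Plagl1* was lowest on both scales, with *Plag1* at 2.33 times its level per kb of span and 2.50 times per kb of exon. *Plagl2* was at 3.58 times the level of *Plagl1* per kb of span but at 1.14 times per kb of exon.

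**Figure D2:**
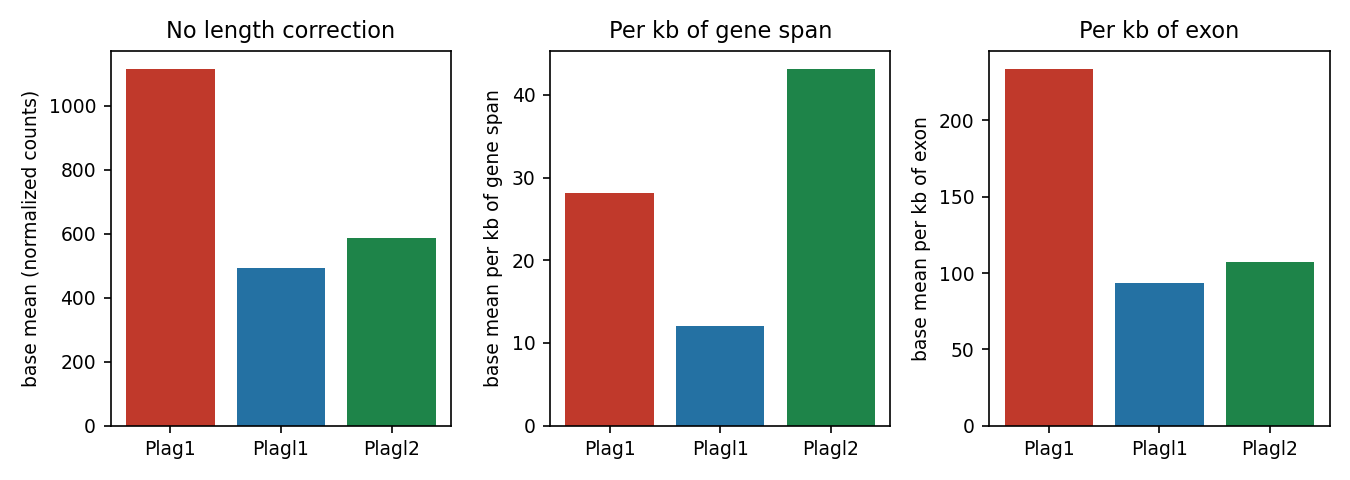
Level of each PLAG gene as the authors' base mean (left), per kb of gene span (middle) and per kb of exon (right), with 1 pooled value per bar and no error bar, since values per library were not analysed. *Plagl2* rises from 586.7 on the left to the highest of the family per kb of span (43.2), and *Plag1* is highest on the other scales.

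The surroundings of the genes followed a shared layout for *Plag1* and *Plagl2*. Each starts head to head with a gene on the opposite strand, *Chchd7* for *Plag1* and *Pofut1* for *Plagl2*. The starts of *Plag1* and *Chchd7*, which encodes a small mitochondrial protein, lie 410 bp apart on the gene models used, and those of *Plagl2* and *Pofut1*, which encodes the enzyme that adds O-fucose to Notch receptors, lie 174 bp apart. Such a partner within 1 kb, with both genes in the table, was found for 9.19% of 18973 genes. *Plagl1* had none, and its nearest entries, *Stx11* and *Zc2hc1b*, were separated from it by 126333 and 17949 bp.

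The stretch between the starts of *Plagl2* and *Pofut1* is printed because it serves as the start region of both genes. It covers chr2:153241359-153241531 of GRCm38.p6 (plus strand, RefSeq), and capitals mark a match to a fixed form of a GC-rich motif of the PLAG family.

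Plagl2 and Pofut1: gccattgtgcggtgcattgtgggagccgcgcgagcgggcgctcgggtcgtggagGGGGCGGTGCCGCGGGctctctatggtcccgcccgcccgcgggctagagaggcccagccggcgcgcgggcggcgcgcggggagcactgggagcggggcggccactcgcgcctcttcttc

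The motif was searched on both strands only as GGGGC, a spacer of 6, 7 or 8 bases and GGG. Variants with other letters were not searched, so lower-case bases may hold them. The searched form occurred 1 time in the 173 bases, with a spacer of 8. It was present in 11.6% of 32851 promoters over the same number of bases before the start. Of these 173 bases 78.0% were G or C, against a median of 53.8%, and 27 CpG dinucleotides were present, more than in 97.5% of promoters. The ratio of observed to expected CpG was 1.05 (median 0.396).

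The window before *Plagl1* is shown beside it because *Plagl1* has no partner that shares its start region. It covers chr10:13090582-13090831 of GRCm38.p6 (plus strand, RefSeq), with capitals reserved for the same form of the motif.

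Plagl1: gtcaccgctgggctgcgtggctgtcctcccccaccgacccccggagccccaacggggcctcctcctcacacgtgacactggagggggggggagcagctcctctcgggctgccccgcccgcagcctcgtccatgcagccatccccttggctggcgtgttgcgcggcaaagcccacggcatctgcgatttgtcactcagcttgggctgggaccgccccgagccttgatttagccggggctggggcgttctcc

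This window of 250 bases held 0 matches to the searched form, which 14.0% of promoters of that length carried. As variants were not searched, the 0 does not show that the window lacks the motif. GGGGC alone occurred 6 times in it, and 56.5% of promoters carried GGGGC at least once. In the *Plagl2* and *Pofut1* stretch GGGGC occurred 2 times (at least once in 49.4% of promoters over that length). These shares do not show whether either count is high. In the *Plagl1* window the share of G and C was 70.4% (median 52.4%), with 19 CpG dinucleotides, more than in 80.3% of promoters. The observed to expected ratio of that window was 0.618 (median 0.374), higher than in 67.4% of promoters that had a ratio. These letters describe the windows, and binding was not measured. The promoter of *Plag1* was not used here.

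Levels of the head-to-head partners lay near those of the PLAG genes per kb of gene span. *Chchd7* was at 27.7 normalized counts per kb of span, 0.984 times *Plag1*, and *Pofut1* was at 52.8, 1.22 times *Plagl2*. Per kb of exon the gaps were wider, with *Chchd7* at 0.584 times *Plag1* and *Pofut1* at 2.60 times *Plagl2*. On its other side *Plag1* is followed by *Mos*, the kinase of oocyte maturation, which had a base mean of 3.70 in the authors' table and a level of 2.55 per kb of span. *Tm9sf4*, the other neighbour of *Plagl2*, was at 48.9 per kb of span, 1.13 times *Plagl2*, although at 5.77 times per kb of exon. Both neighbours of *Plagl1* were below it, *Stx11* at 0.251 times and *Zc2hc1b* at 0.0595 times its level per kb of span, and at 0.210 and 0.188 times per kb of exon.

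**Figure D3:**
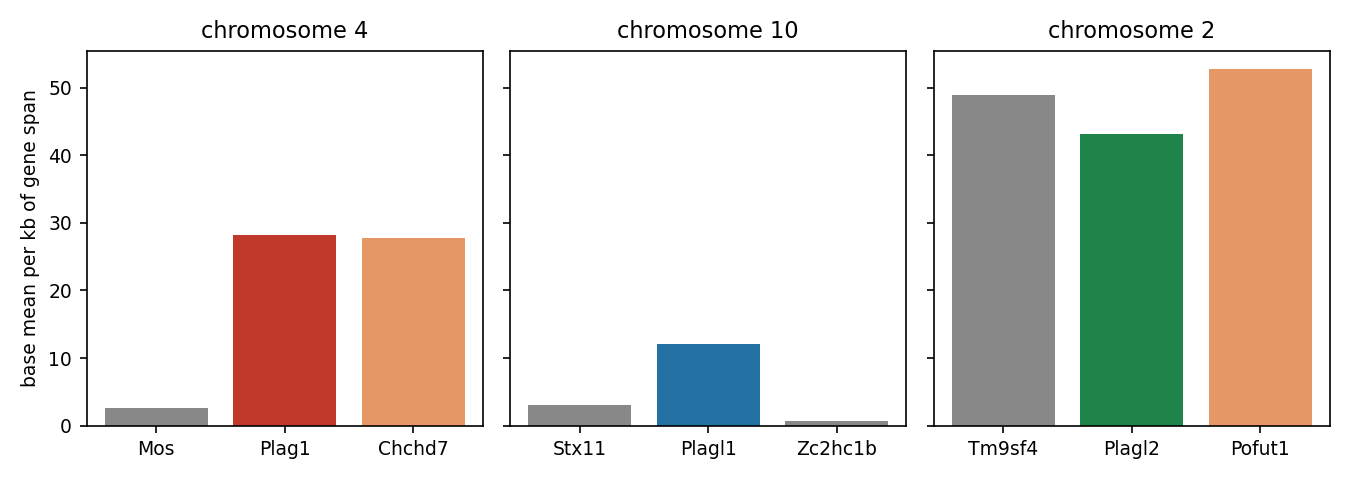
Base mean per kb of gene span for each PLAG gene (coloured, middle bar) and the nearest table entry on either side, with head-to-head partners in orange and other neighbours in grey. *Plag1* (28.2) is level with its partner *Chchd7* (27.7), *Plagl2* (43.2) stands between genes at 48.9 and 52.8, and *Plagl1* (12.1) exceeds both of its neighbours.

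No other gene of the table overlapped a PLAG gene. In the GENCODE annotation 1 further gene did, *Gm27741*, a short RNA on the strand opposite to *Plagl1* that covers 237 bp (0.580%) of it. Libraries were made with a directional kit, but the strand setting of the authors' counting is not stated.

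Among 29 other C2H2 zinc finger factors, the PLAG genes were neither rare nor prominent. The list had a median level of 41.9 per kb of gene span, which fell on *Gli1*, an effector of Hedgehog signalling, and ran from 0.0573 in *Zic4* to 601.7 in *Klf2*, a regulator of naive pluripotency. Of the 29 factors, 14 were above *Plagl2*, 18 above *Plag1* and 22 above *Plagl1* on that scale. Per kb of exon 21 were above *Plagl2*, 19 above *Plag1* and 22 above *Plagl1*. There *Klf9* was highest at 1613, with *Klf2* at 844.7, and *Zic4* was again lowest at 0.536. The median over all entries was 9.45 per kb of span, and 22 of the 29 factors exceeded it, as did each PLAG gene.

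Known targets of PLAG1 and PLAGL2 in other cells covered a wide range. The 11 genes of that list had a median of 17.0 per kb of gene span, at *Crabp2*, a retinoic acid carrier. The highest was *Fzd2*, a Wnt receptor, at 105.2, and the lowest was *Sftpc*, a lung surfactant gene, listed at 0. *Igf2*, the target best known for *Plag1*, was at 52.9 per kb of span with a base mean of 849.1 in the authors' table. In all, 7 of the 11 exceeded the median of all entries, and 2 had a base mean under 10. The placement of the list beside the family depended on the length used. Per kb of span, 5 of the 11 genes were above *Plag1*, 7 above *Plagl1* and 4 above *Plagl2*, whereas per kb of exon the counts were 2, 4 and 3 and the list's median of 85.3 was below all PLAG genes. The highest gene per kb of exon was *Bnip3* at 417.5, with *Fzd2* at 104.2.

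Genes of the imprinted network around *Plagl1* were mostly well represented. Of 12 genes, 9 were above *Plagl1* both per kb of span and per kb of exon, and 9 exceeded the median of all entries. Their median was 89.8 per kb of span, midway between *Igf2r*, which encodes the receptor that clears IGF2, at 106.7 and *Grb10*, which encodes an adaptor that restrains insulin and IGF signalling, at 72.8. *Peg3*, a paternally expressed zinc finger gene, was highest per kb of span at 193.6. *Dcn*, a matrix proteoglycan gene, was lowest at 0.265, and *H19*, the noncoding RNA that is imprinted opposite to *Igf2*, had a base mean of 4.03 in the authors' table. Per kb of exon the ends of the list differed. *Meg3* was highest at 1909, with *Peg3* at 591.7, and *H19* was lowest at 1.76, with *Dcn* at 5.82. Of the 4 genes listed as direct targets of PLAGL1, *Cdkn1c*, which encodes a cell cycle inhibitor and is in both lists, was highest at 135.2 per kb of span and *Adcyap1r1*, a neuropeptide receptor gene, lowest at 2.38. The list's median of 54.9 lay midway between *Apaf1*, an activator of caspases, at 30.2 and *Cdkn1a*, which encodes the cell cycle inhibitor p21, at 79.7. Per kb of exon *Cdkn1c* was at 194.9, below *Cdkn1a* at 842.2 and *Apaf1* at 428.4, and *Adcyap1r1* was again lowest at 19.5. What the lists share with *Plagl1* is a reported connection from other tissues, and no regulation was measured.

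**Figure D4:**
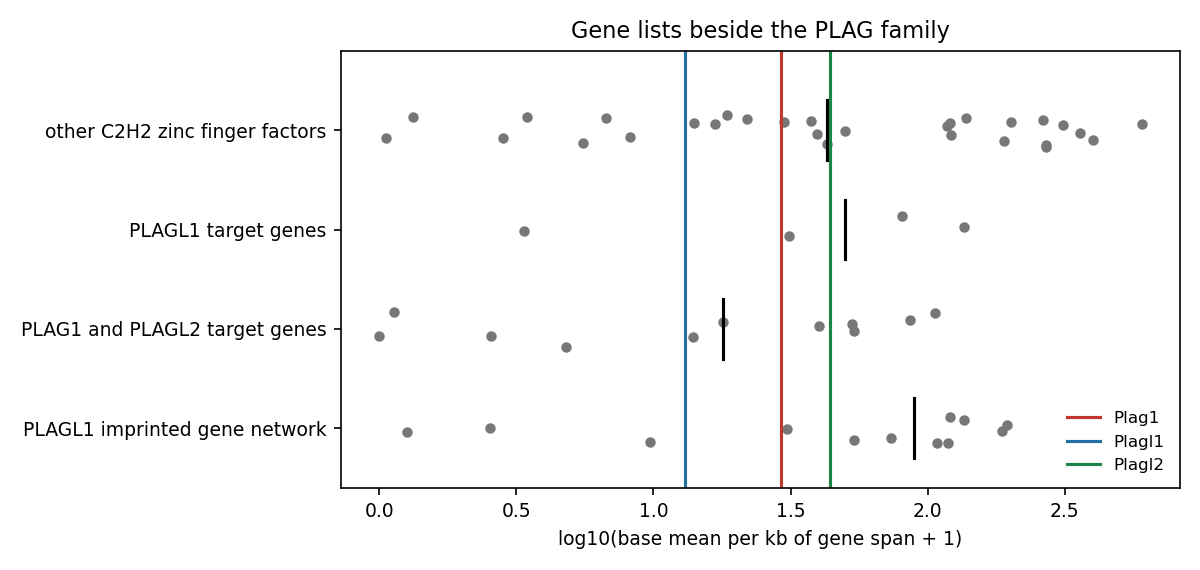
Base mean per kb of gene span, on a log10(value + 1) axis, for the members of 4 gene lists (grey points, spread vertically for legibility), with a black bar at each list's median and coloured lines at the PLAG genes. The median of the imprinted network (89.8) is right of all PLAG genes, and that of the PLAG1 and PLAGL2 targets (17.0) lies between *Plagl1* (12.1) and *Plag1* (28.2), although per kb of exon (not drawn) it is below all of them.

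The label of the cells was checked against markers. Of 10 embryonic stem cell markers 8 had an entry, and their base means ran from 2127 to 14300. All 8 were above each PLAG gene per kb of gene span and per kb of exon. Base means of markers of other lineages reached 268.5 for primitive endoderm (*Gata4*), 79.9 for mesoderm (*Eomes*), 625.4 for neural cells (*Tubb3*), 1131 for trophoblast (*Tfap2c*) and 369.3 for fibroblasts (*Col1a1*), and the least abundant marker of each of these lineages was under 10. *Tubb3* and *Tfap2c* were above each PLAG gene per kb of gene span, at 59.8 and 87.4, and no other marker of these lineages exceeded *Plag1* on that scale. The targeted genes had base means of 13983 for *Rybp*, at percentile 99.3, and 3.24 for *Yaf2*, at percentile 17.8. As these means pool UNT and OHT, that of *Rybp* is no check of its deletion.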

How the data were processed

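Nuclear RNA-seq of 6 libraries (3 UNT, 3 OHT) was analysed from 1 table of 20633 entries. The authors removed rRNA reads with bowtie2, mapped what was left to the mm10 genome (STAR first, bowtie2 for reads it left unmapped), counted read pairs over a filtered refGene set and ran DESeq2; versions are not given in the sources used here. The deposited base mean is a signal, the mean over libraries of counts divided by size factors, not corrected for length. The other 6 value columns of the authors' table hold their OHT against UNT comparison (fold changes, standard errors, test statistics, p-values, calls) and were not used. Without counts for single libraries their depth is unknown, no test was made and the planned count test was not run.

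Entries were named through the RefSeq table of GRCm38.p6 (20450 entries) and GENCODE vM21 (20560 in all). Where a gene had several entries, the one with the highest base mean was kept. Percentiles are the share of entries that are lower. Gene spans came from RefSeq and exon lengths from GENCODE. Proteins were translated from GENCODE transcripts and aligned globally (BLOSUM62, gap scores -11 and -1, Biopython 1.88). Python 3.11.15, numpy 2.4.6, pandas 2.3.3, scipy 1.17.1 and matplotlib 3.10.9 were used, and the ranking was tested on simulated data. Members and lists were chosen with earlier results of these data known. Named genes are the members, their nearest entries, *Rybp* and *Yaf2*. Of each list, the highest, the lowest and the one nearest the median per kb of gene span were also named (both where 2 were equally near). *Igf2*, *H19*, the leading markers and the genes highest per kb of exon were named after their values were seen. Also after values were seen, the ranking of the lists was changed from base mean to base mean per kb of gene span, the zinc finger pattern was widened, and the alignment of coding bases was replaced by that of proteins. Alternatives were other sets of entries, a base mean minimum of 10, summed entries, exon length and, added after seeing the data, transcript span.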

Additional observations from a re-analysis of the deposited data

How the results depend on the processing

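No paired analysis was possible because values of single libraries were not at hand, and for the same reason no replicate was left out and no count fit was run. With 1 entry per gene symbol, percentiles of *Plag1*, *Plagl2* and *Plagl1* were 74.7, 63.8 and 60.9. Over entries with a base mean above 0 they were 72.7, 60.8 and 57.7, and over those that reached a base mean of 10 they were 66.5, 51.8 and 48.0, because fewer low entries are counted, which put *Plagl1* below the middle. With entries summed per gene, *Plag1* was at 74.0. Dividing by exon length gave 233.9 per kb for *Plag1*, 107.0 for *Plagl2* and 93.8 for *Plagl1*. It turned the ratio of *Plagl2* to *Plag1* to 0.457 and moved *Plagl2* to *Plagl1* to 1.14 and *Plag1* to *Plagl1* to 2.50. With the span of the single annotated transcript, *Plag1* was at 29.9 per kb, *Plagl2* to *Plag1* at 1.44 and *Plag1* to *Plagl1* at 2.48. Without values per library, replicate error is unknown for every level and ratio, and no difference between levels was tested.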
